A study of Mus musculus with 2 samples.

Results

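The interferon regulatory factors described here are Irf1, Irf2, Irf4, Irf5, Irf7, Irf8 and Irf9, 7 of the 32285 genes that were counted. They were taken by gene symbol, with earlier results of these data known, and each symbol matched 1 gene in both libraries. Their transcripts were counted in immune cells from orthotopic pancreatic tumors of male C57BL/6J mice, 5 to 6 weeks old at purchase, that were inoculated with K210 cells. K210 cells came from a spontaneous pancreatic tumor of a C57BL/6J mouse, and both groups of mice carried these same tumor cells. One group was given PBS and the other cmExoaCD11b, that is, exosomes of mouse embryonic fibroblasts that carried cGAMP, which activates STING, together with mRNA of IL-12, and antibodies to CD11b on their surface. Injections were intraperitoneal, began 7 days after inoculation and were repeated every 3 days, with 5 µg of cGAMP per mouse. The cells were taken 48 h after treatment, those of 3 mice made up 1 pool per treatment, and each pool gave 1 droplet library (10x Genomics, 3' chemistry), so no difference between the treatments has a replicate check and none was tested.

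Interferon regulatory factors are transcription factors that bind a repeated GAAA element, the interferon-stimulated response element (ISRE). IRF9 is the DNA-binding part of the complex that carries the type I interferon signal to the nucleus, IRF7 amplifies interferon production and is itself an interferon target, and IRF1 is induced by interferon-γ, which acts through a gamma-activated sequence (GAS). IRF2 occupies similar sites as IRF1 and can oppose it, IRF5 acts downstream of Toll-like receptors in myeloid cells, and IRF4 and IRF8 direct lineage choice in B cells, plasma cells, dendritic cells (DCs) and monocytes.

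Upstream windows of the genes are shown because they differ in whether they hold a match to the elements through which interferons act. Motifs were searched in the 250 bases before each RefSeq transcription start of GRCm38.p6, on both strands, as GAAA, any 2 bases and GAAA (ISRE) and as TTCNNNGAA (GAS, the same on either strand). Of 32851 such windows over all genes, 2.98% held an ISRE match and 7.02% a GAS match. The 7 genes had 10 windows, of which 1 held an ISRE match and 3 a GAS match. Capitals mark the matches, and all 3 stretches lie on the plus strand. The Irf1 stretch is chr11:53769899-53769957, with its match starting 90 bases before the start site. The Irf2 stretch is chr8:46739496-46739554, with the ISRE match 241 and the GAS match 224 bases before the start. The Irf8 stretch is chr8:120736162-120736220, with GAS matches 171 and 153 bases before the start.
Irf1: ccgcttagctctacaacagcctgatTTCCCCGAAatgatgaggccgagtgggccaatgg
Irf2: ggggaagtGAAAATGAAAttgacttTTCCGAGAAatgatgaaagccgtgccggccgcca
Irf8: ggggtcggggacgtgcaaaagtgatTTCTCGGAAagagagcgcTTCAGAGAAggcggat

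The windows of Irf4, Irf5, Irf7 and Irf9 held no match to these letters, which says nothing about binding by a factor. The window of Irf7, the gene with the largest ratio between the libraries below, is given in full for comparison and lies at chr7:141266425-141266674 on the minus strand.
Irf7: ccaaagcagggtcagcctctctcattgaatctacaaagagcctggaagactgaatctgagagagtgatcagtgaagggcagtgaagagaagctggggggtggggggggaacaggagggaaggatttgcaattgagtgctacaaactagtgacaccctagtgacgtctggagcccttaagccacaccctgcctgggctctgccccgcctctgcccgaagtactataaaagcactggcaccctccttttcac

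The PBS library held 67143628 unique molecular identifiers (UMIs), the count of distinct captured transcripts, and the cmExoaCD11b library 81288480. After calling, filtering and removal of likely doublets, 6835 and 7075 cells were kept, with median depths of 3471 and 4107 UMIs, and 15 barcodes occurred in both. Cells were gated into 14 classes by UMIs of marker genes. Levels are CPM, the counts per 1000000 UMIs of the cells of a class, and their 95% intervals are exact Poisson intervals. Shares of cells were taken after thinning each cell to 1000 UMIs, with exact Clopper-Pearson 95% intervals. Ratios are those of cmExoaCD11b to PBS with exact conditional 95% intervals, and all intervals cover counting error only. A gene in a class was called higher or lower when the ratio was at least 1.5 in either direction and the libraries held at least 50 UMIs together. Classes were compared when both libraries had at least 20 cells, which left 12 classes. Neutrophils were the main population, with 1108 precursors and 3415 mature cells in PBS and 1776 and 2386 in cmExoaCD11b. The other compared classes had 21 to 310 cells in PBS and 35 to 361 in cmExoaCD11b. Gate genes followed the gates, with Xcr1 at 146 CPM in type 1 DCs of PBS and 0 in macrophages, and Cd79a at 1422 CPM in B cells and 1.23 in mature neutrophils. Since the gates used both genes, these values are no check on them. Ly6c2, which no gate used, was at 921 CPM in neutrophil precursors, 475 in monocytes and 420 in CD8 T cells of PBS. Epithelial cells, 45 and 35 in number, carried Krt8 at 1915 CPM in PBS although the series describes immune cells.

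**Figure D1:**
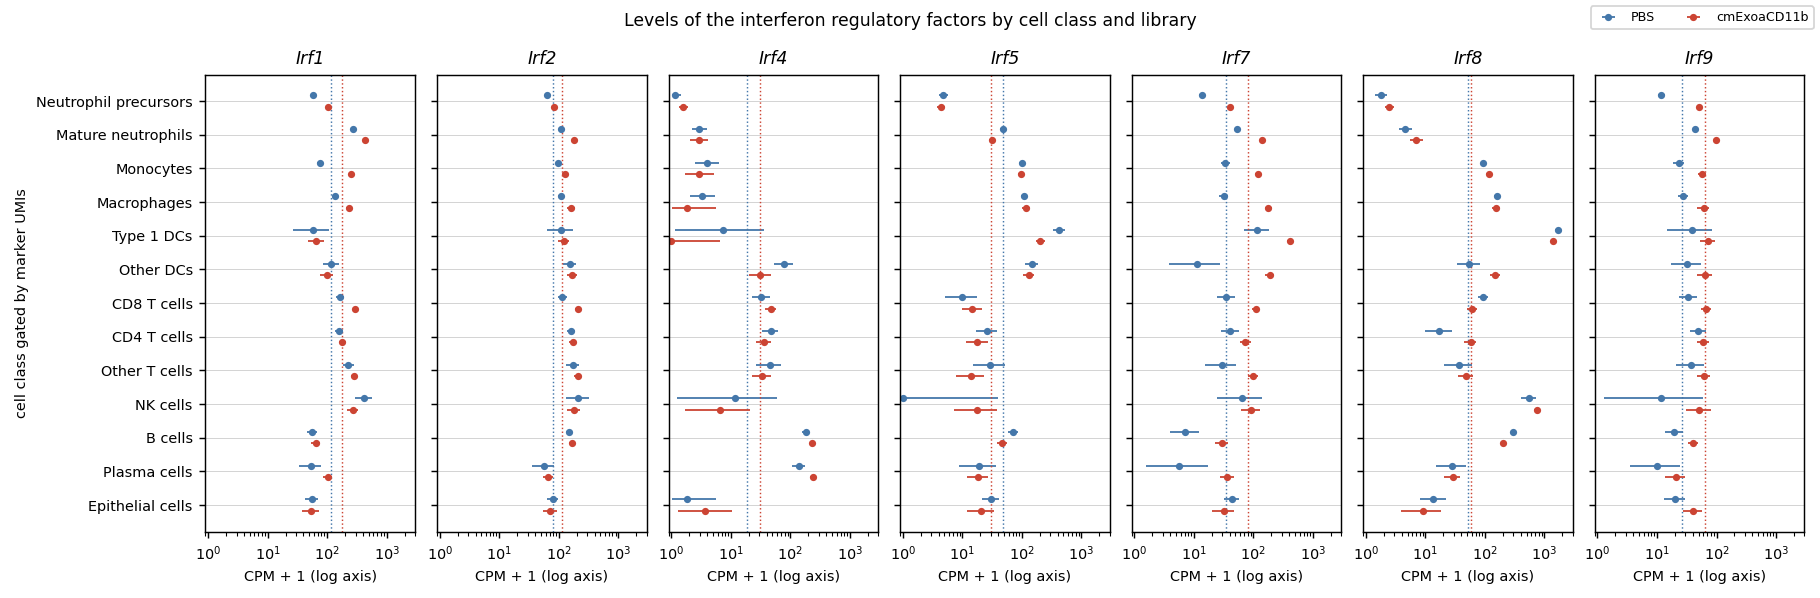
Level of each factor (CPM + 1, log axis) in 13 of the cell classes, in the PBS library (blue) and the cmExoaCD11b library (red), with exact Poisson 95% intervals. Dotted lines are the level in empty droplets of the same library. Irf4 and Irf8 span over 100-fold between classes, whereas Irf2 lies between 54.8 and 211 CPM in every class.

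The 2 factors that direct lineage choice were the most unevenly spread. Irf8 stood at 1692 CPM (1495 to 1908) in the 12 type 1 DCs of PBS and at 1369 CPM (1281 to 1463) in the 44 of cmExoaCD11b. In both libraries this was its highest level among the classes plotted, and NK cells came next. NK cells held 539 CPM in PBS and 741 in cmExoaCD11b, B cells 299 and 201, macrophages 156 and 153, and monocytes 93.3 and 116. These 4 neighbors in the order had intervals that did not overlap in PBS. Neutrophil precursors stood at 0.775 CPM in PBS and 1.48 in cmExoaCD11b, and mature neutrophils at 3.60 and 6.03. In thinned cells, Irf8 was found in 58.3% of type 1 DCs, 32.1% of NK cells, 26.7% of B cells and 0.520% of mature neutrophils of PBS. The empty droplets held Irf8 at 50.2 CPM in PBS and free RNA made up an estimated 2.32% of the UMIs of a cell, which amounts to 1.17 CPM in PBS and 1.34 in cmExoaCD11b. The level in neutrophil precursors was thus below or near what free RNA could give. Of all Irf8 UMIs in PBS, 25.8% lay in macrophages and 11.3% in type 1 DCs, and in cmExoaCD11b 5.33% and 25.9%, while macrophages numbered 291 and 95 cells and type 1 DCs 12 and 44.

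Irf4, needed for plasma cell formation and for activated T cells, was a gene of the B lineage in these tumors. B cells held 179 CPM in PBS and 235 in cmExoaCD11b, and plasma cells 137 and 235. The next classes were other DCs in PBS, at 76.9 CPM, and CD8 T cells in cmExoaCD11b, at 45.9. Mature neutrophils held 1.93 CPM in PBS and 1.92 in cmExoaCD11b, and macrophages 2.31 and 0.839. In type 1 DCs there was 1 UMI in PBS and none in cmExoaCD11b, which allows up to 4.64 CPM by a limit of 3 counts. B and plasma cells thus stood far above neutrophils, monocytes and macrophages, and the T cell classes, at 31.3 to 45.9 CPM in both libraries, lay between. Other DCs were the exception among the myeloid classes, since their interval in PBS (51.9 to 110 CPM) overlapped that of plasma cells (104 to 176). Of the Irf4 UMIs of the library, B cells held 39.8% in PBS and 38.5% in cmExoaCD11b, and plasma cells 8.24% and 22.1%. There were 21 plasma cells in PBS and 69 in cmExoaCD11b.

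Irf5 followed the antigen-presenting myeloid cells. Type 1 DCs held 425 CPM in PBS and 203 in cmExoaCD11b, other DCs 146 and 130, macrophages 107 and 118, and monocytes 99.1 and 95.9. The level in type 1 DCs of PBS rests on 67 UMIs in 12 cells. Before thinning, 91.7% of type 1 DCs in PBS and 70.5% in cmExoaCD11b held Irf5. Thinned cells had the opposite order, 0% (0 to 26.5) and 22.7% (11.5 to 37.8), with intervals that overlapped. The intervals of other DCs, macrophages and monocytes overlapped in PBS. B cells held 69.9 and 45.7 CPM, mature neutrophils 46.4 and 30.3, and precursors 3.82 and 3.41. Irf5 therefore differed between the neutrophil stages in each library. In NK cells of PBS no UMI of Irf5 was found, which allows up to 31.7 CPM.

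The 4 factors linked to interferon signaling itself had UMIs in every class that held cells. Irf1 was highest in NK cells of PBS, at 412 CPM (293 to 564), and in mature neutrophils of cmExoaCD11b, at 440 CPM (425 to 455). Mature neutrophils of PBS held 268 CPM, and precursors 55.9, so that the later stage was higher in CPM in both libraries. Precursors were deeper, with median depths of 14756 UMIs against 2917 in PBS and 13764 against 2754 in cmExoaCD11b. Before thinning, 46.2% of precursors and 36.0% of mature neutrophils of PBS had an Irf1 UMI, and 59.7% and 46.6% in cmExoaCD11b. The CPM order is thus one per UMI and not per cell. Irf2 ranged from 54.8 CPM in plasma cells to 211 in NK cells of PBS, and the intervals of its first 4 classes overlapped from one to the next. Irf7 in PBS ran from 4.56 CPM in plasma cells to 114 in type 1 DCs, and Irf9 from 9.13 in plasma cells to 47.9 in CD4 T cells. Both neutrophil classes together held 61.0% of the Irf7 UMIs and 60.1% of the Irf9 UMIs of PBS, and 51.4% and 65.4% in cmExoaCD11b. Of the 50650189 UMIs of all kept PBS cells, precursors held 19362052 and mature neutrophils 11375571. In cmExoaCD11b these classes held 31070706 and 7792371 of 62340867. Neutrophils thus also held most UMIs of all genes. They held 2.38% of the Irf8 UMIs and 3.43% of the Irf4 UMIs in PBS.

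**Figure D2:**
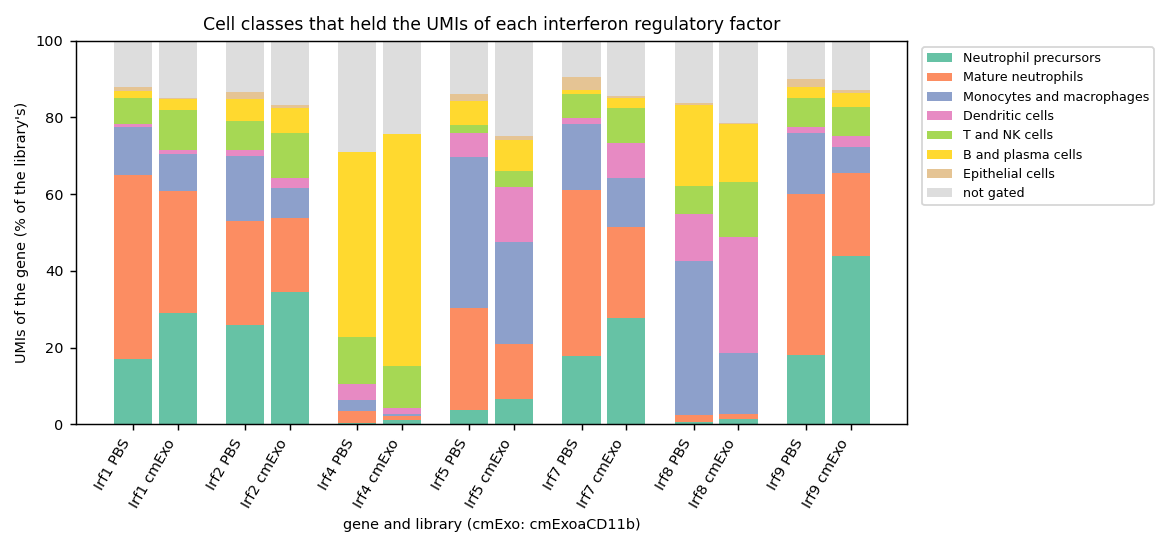
Share of all UMIs of each factor (%) that lay in each group of cell classes, for the PBS and cmExoaCD11b libraries. Neutrophils held most UMIs of Irf1, Irf2, Irf7 and Irf9, as they did of all genes. B and plasma cells held the largest share of Irf4, and no single group most of Irf8.

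Across the 84 combinations of 7 genes and 12 classes, 68 held at least 50 UMIs, and of these 32 (47.1%) were higher in cmExoaCD11b and 5 (7.35%) lower. Over all genes and the same classes, 13% of 75038 combinations were called higher and 10.9% lower. The higher calls were spread unevenly among the factors. Irf7 gave 10 of them, Irf9 9, Irf1 6, Irf8 4, Irf2 2, Irf4 1 and Irf5 none. The lower calls were 2 for Irf5 and 1 each for Irf1, Irf4 and Irf8. These 7 genes share cells and libraries within a class and are not independent of each other. Irf3, a family member outside the 7, was called in none of 7 classes and is not in these counts.

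**Figure D3:**
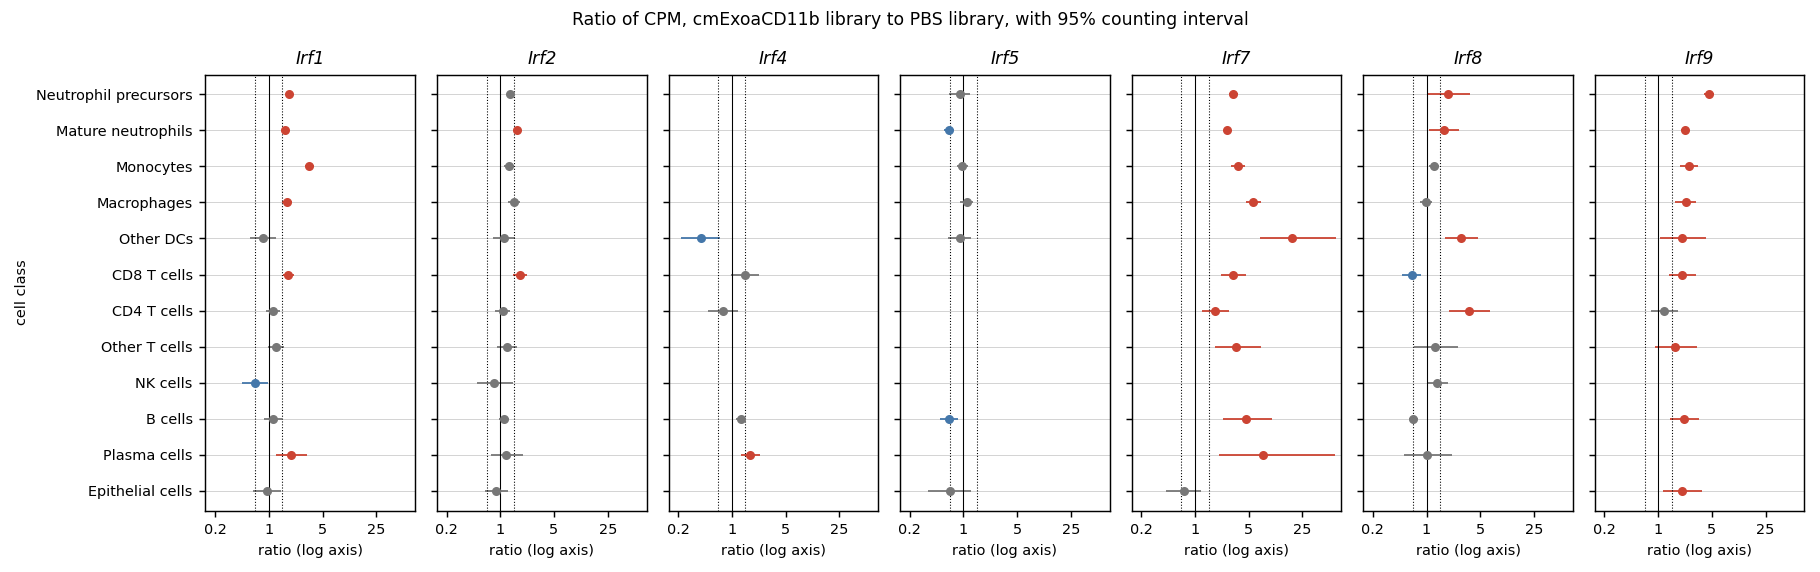
Ratio of CPM, cmExoaCD11b to PBS (log axis), for each factor and compared class with at least 50 UMIs, with exact 95% counting intervals. Dotted lines mark 1.5-fold in either direction, red points are higher, blue points lower and grey points neither. Irf7 is higher in 10 of its 11 classes and Irf9 in 9 of 10.

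Irf7 was the factor with the widest difference. In macrophages it went from 30.7 CPM in PBS to 176 in cmExoaCD11b (5.73-fold, 4.56 to 7.24), where 11.9% of all genes tested were called higher. Monocytes held 32.8 and 118 CPM (3.62-fold, 2.93 to 4.49, with 16.8% of genes called higher). Other DCs held 4 UMIs in PBS and 136 in cmExoaCD11b, or 10.3 and 186 CPM, a ratio of 18.2 with an interval from 6.94 to 67.7. In this class 14.9% of genes were called higher. Other DCs and macrophages thus had the largest ratios of Irf7 among classes with over 3 UMIs in each library. Neutrophils held most of the Irf7 UMIs, as they did of the UMIs of all genes. Precursors had 12.7 and 39.9 CPM (3.14-fold, 2.74 to 3.62) and mature neutrophils 52.4 and 137 (2.61-fold, 2.36 to 2.89). In both neutrophil classes 12.1% of genes were called higher.

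Lymphoid cells shared the direction. Irf7 held 34.2 CPM in CD8 T cells of PBS and 108 in cmExoaCD11b (3.14-fold, 2.18 to 4.65). The values were 39.9 and 72.4 CPM in CD4 T cells, 28.4 and 97.8 in other T cells and 6.19 and 28.2 in B cells. CD4 T cells therefore had the lowest ratio of the lymphoid classes with at least 50 UMIs, 1.81 (1.22 to 2.76), which was 1.48 with the ranked-UMI cutoff alone, and B cells one of 4.57 (2.34 to 9.95). Plasma cells held 2 UMIs in PBS and 49 in cmExoaCD11b, a ratio of 7.78 with an interval from 2.04 to 66.0. NK cells had too few UMIs for a call, with 63.4 and 89.8 CPM. Epithelial cells went the other way without reaching the threshold, at 42.0 CPM in PBS and 30.5 in cmExoaCD11b (0.73-fold, 0.42 to 1.21). The share of genes called higher was 6.93% in epithelial cells, 9.53% in B cells, 10.7% in CD4 T cells, 12.6% in other T cells, 16.7% in CD8 T cells and 20.5% in plasma cells.

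Markers of the macrophage, monocyte, other DC and neutrophil gates differed between the libraries. In the macrophage gate, C1qa was at 2965 CPM in PBS and 1232 in cmExoaCD11b, and Ly6c2 at 48.2 and 465. In the monocyte gate, Ly6c2 was at 475 and 1024 CPM, the receptor gene Csf1r at 199 and 97.2, and C1qa at 16.5 and 1.31. Among other DCs, which had the largest Irf7 ratio, Flt3 was at 94.8 and 167 CPM, Ly6c2 at 5.13 and 49.3, and Csf1r at 53.8 and 38.4. In neutrophil precursors, Csf3r, the receptor gene for the neutrophil growth factor G-CSF, was at 128 and 227 CPM. In mature neutrophils, S100a8 was at 21556 and 33078 CPM and Ly6c2 at 73.5 and 179. The part of these shifts in the ratios of the factors was not tested. Empty droplets held Irf7 at 33.5 CPM in PBS and 79.8 in cmExoaCD11b, and with free RNA subtracted the count of combinations called higher was 31 in place of 32.

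Irf9, which completes the type I interferon complex, was at 10.8 CPM in neutrophil precursors of PBS and 49.1 in those of cmExoaCD11b (4.53-fold, 3.92 to 5.26). This was its largest ratio among the classes with at least 50 UMIs. NK cells, with 1 and 18 UMIs, had too few for a call. Mature neutrophils held 43.1 and 95.9 CPM (2.23-fold, 1.98 to 2.50), monocytes 22.3 and 55.8 (2.50-fold, 1.91 to 3.30) and macrophages 26.1 and 59.6 (2.28-fold, 1.66 to 3.12). The call in macrophages ended, at 1.43-fold, when each cell was weighted equally, an alternative chosen after seeing the data. Precursors lay below mature neutrophils in CPM in both libraries but nearer to them in cmExoaCD11b. Before thinning, 14.8% of the deeper precursors and 11.6% of mature neutrophils of PBS had an Irf9 UMI, and 49.3% and 23.3% in cmExoaCD11b. CD8 T cells held 32.3 and 65.7 CPM (2.03-fold, 1.37 to 3.09) and B cells 18.6 and 39.9 (2.15-fold, 1.41 to 3.35). CD4 T cells had the smallest ratio among the classes with at least 50 UMIs, 47.9 and 57.7 CPM (1.21-fold, 0.82 to 1.80). Epithelial cells, in which Irf7 was not higher, held Irf9 at 19.3 and 39.8 CPM (2.06-fold, 1.16 to 3.71).

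Irf1 was higher in cmExoaCD11b in neutrophils, monocytes, macrophages, CD8 T cells and plasma cells. Monocytes held 74.3 CPM in PBS and 249 in cmExoaCD11b (3.36-fold, 2.92 to 3.87), and 8% against 26.3% of thinned monocytes had a UMI. Precursors held 55.9 and 101 CPM (1.81-fold, 1.68 to 1.94), mature neutrophils 268 and 440 (1.64-fold, 1.56 to 1.72) and macrophages 134 and 230 (1.72-fold, 1.48 to 1.99). CD8 T cells held 165 and 298 CPM (1.80-fold, 1.51 to 2.16), whereas CD4 T cells held 157 and 178 (1.13-fold, 0.91 to 1.41). Plasma cells held 52.5 and 101 CPM (1.92-fold, 1.23 to 3.13) and other DCs 115 and 97.3 (0.84-fold, 0.57 to 1.25). NK cells were lower, at 412 CPM from 29 cells in PBS and 269 from 100 cells in cmExoaCD11b (0.65-fold, 0.45 to 0.97). The calls of Irf1 ended in macrophages without cells holding UMIs of other lineages (1.44-fold) and in CD8 T cells with the ranked-UMI cutoff alone (1.36-fold) or after thinning (1.47-fold). In plasma cells the direction turned, to 0.85-fold, as a mean over cells, an alternative chosen after seeing the data. In NK cells the direction turned, to 1.12-fold, with the ranked-UMI cutoff alone, and the call ended at 0.68-fold both with 1 more marker UMI and without cells holding UMIs of other lineages. In NK cells 7.59% of genes were called lower and 19.3% higher. Irf2 was closer to 1 in most classes, with a median ratio of 1.20 over 12 classes, and was called higher in mature neutrophils, at 110 and 180 CPM (1.64-fold, 1.52 to 1.77), and in CD8 T cells, at 114 and 206 (1.80-fold, 1.46 to 2.24, but 1.34-fold after thinning and 1.28-fold as a mean over cells).

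Among the lineage factors, Irf8 was higher in other DCs, at 53.8 CPM in PBS and 149 in cmExoaCD11b (2.78-fold, 1.73 to 4.66), and in CD4 T cells, at 16.0 and 56.2 (3.52-fold, 1.97 to 6.76). The shares of cells with an Irf8 UMI before thinning were closer, 36.1% and 38.1% of other DCs and 6.57% and 9.52% of CD4 T cells. After thinning they were 8.33% and 11.1%, and 0.730% and 3.91%. Most cells of these classes thus held no Irf8 UMI, and the ratios describe class sums. The CD4 T cells held 14 Irf8 UMIs in PBS and 73 in cmExoaCD11b, and the DC marker Flt3 in them was at 2.28 and 7.70 CPM. Other myeloid markers in the same cells went both ways. Lower in cmExoaCD11b were Xcr1, at 5.70 and 0 CPM, Csf1r, at 25.1 and 9.24, and C1qa, at 21.7 and 2.31. Higher were S100a8, at 455 and 613 CPM, and Csf3r, at 10.3 and 12.3. Ly6c2 was also higher, at 75.2 and 203 CPM, but it is no myeloid marker among T cells, since CD8 T cells held it at 420 and 640. The part of myeloid cells or their RNA in these Irf8 values was not tested. Without cells holding a UMI of another lineage the ratio in CD4 T cells was 8.42. CD8 T cells went the other way, at 91.9 and 58.9 CPM (0.64-fold, 0.48 to 0.86), with 12.0% of genes called lower, and this direction turned to 1.08-fold under the ranked-UMI cutoff alone. In thinned CD8 T cells, 3.57% held Irf8 in PBS and 2.51% in cmExoaCD11b. B cells held 299 and 201 CPM (0.67-fold, 0.59 to 0.76), just inside the threshold. In the B cell gate the plasma cell gene Jchain was at 857 and 5143 CPM, and its part in the Irf8 values was not tested. The neutrophil classes were also called higher for Irf8, by 1.91-fold and 1.67-fold, at levels of at most 6.03 CPM against 1.34 CPM from free RNA, and the directions turned, to 0.87 with no doublets removed in precursors and to 0.64 in thinned mature neutrophils. In the classes in which no factor was called lower, the share of genes called lower was 1.92% in neutrophil precursors, 11.5% in monocytes, 12.1% in macrophages, 7.15% in CD4 T cells, 6.15% in other T cells, 6.52% in plasma cells and 12.8% in epithelial cells.

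Irf4 was higher in plasma cells, at 137 CPM in PBS and 235 in cmExoaCD11b (1.72-fold, 1.30 to 2.30), where 20.5% of genes were called higher. In B cells it held 179 and 235 CPM (1.31-fold, 1.14 to 1.52). In the same B cell gate Jchain was at 857 and 5143 CPM and the B cell gene Cd79a at 1422 and 967. The part of these shifts in the Irf4 and Irf5 values of B cells was not tested. Other DCs were lower, at 76.9 and 30.2 CPM (0.39-fold, 0.22 to 0.70), against 11.2% of genes called lower, but thinned cells gave 1.14-fold and a mean over cells 0.78-fold. Irf5 was lower in mature neutrophils, at 46.4 and 30.3 CPM (0.65-fold, 0.56 to 0.76), a class in which 25.9% of genes were called lower, and in B cells, at 69.9 and 45.7 (0.65-fold, 0.50 to 0.86), where 9.61% were. The call of Irf5 ended with median-of-ratios scaling in both, at 0.74 and 0.69, in mature neutrophils also with the ranked-UMI cutoff alone (0.71) and after thinning (0.73), and in B cells without cells holding UMIs of other lineages (0.73), with no doublets removed (0.69) and as a mean over cells (0.80). Its ratios in monocytes, macrophages and other DCs were 0.97, 1.10 and 0.89, with intervals that held 1.

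**Figure D4:**
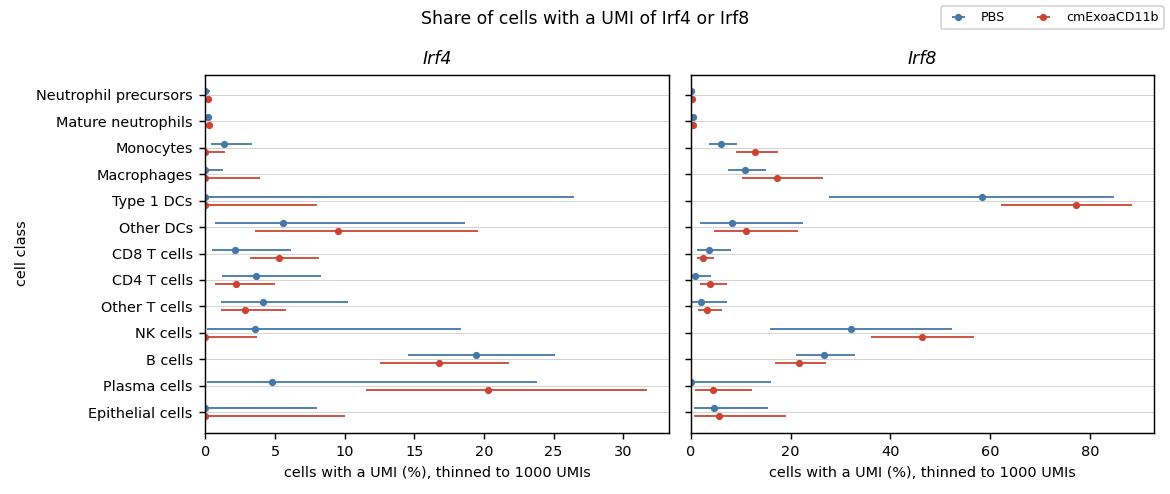
Share of cells (%) with at least 1 UMI of Irf4 or Irf8 after thinning each cell to 1000 UMIs, in 13 classes of the PBS (blue) and cmExoaCD11b (red) libraries, with exact 95% intervals. Irf8 marks 58.3% and 77.3% of type 1 DCs, and Irf4 lies at 19.4% and 16.8% of B cells.

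Ratios over all kept cells, ungated cells included, were set beside ratios over the gated classes with each weighted by its PBS share of UMIs. These ratios also differ in the cells they use, so a gap between them cannot be put down to class sizes alone. Irf4 had a ratio of 1.64 over all kept cells and 1.22 at the PBS shares. For Irf8 the values were 1.18 and 0.98, and for Irf5 0.67 and 0.85. Irf1 had 1.38 and 1.72, and Irf2 1.30 and 1.41. Irf7 had 2.64 and 3.12, and Irf9 2.43 and 2.65, so that for these the ratio was as large or larger at the class sizes of PBS.

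Known targets of the factors were described by a list of 20 genes such as Isg15, Ifit1, Rsad2, Gbp2 and Tap1. In macrophages 18 of 20 targets with at least 50 UMIs were higher and none lower, in monocytes 15 of 17, in CD8 T cells 14 of 17 and in CD4 T cells 7 of 17. In neutrophil precursors 12 of 17 were higher and in mature neutrophils 13 of 19, with none lower. B cells had 10 of 16 higher, other T cells 7 of 17 and plasma cells 6 of 9, also with none lower. The remaining classes were mixed, with 9 higher and 1 lower of 16 in other DCs, 3 higher and 1 lower of 9 in NK cells, and 7 higher and 4 lower of 16 in epithelial cells. Their median ratio was 2.50 in macrophages, 2.75 in monocytes, 2.09 in CD8 T cells and 1.36 in CD4 T cells, against 1.03, 1.09, 1.05 and 1.04 over all genes tested. CD4 T cells were thus lowest of these 4 for the targets as well as for Irf7 and Irf9. In monocytes Usp18, a negative regulator of interferon signaling, went from 7.43 to 61.7 CPM (8.30-fold). In CD8 T cells Oasl1 went from 6.85 to 90.6 CPM (13.2-fold), and in mature neutrophils Ifit1 from 87.5 to 541 (6.19-fold). These were the highest ratios in each class over all the pathway lists, the 7 factors left out. The lowest over the same lists were Id2 in monocytes (0.46-fold), Myd88 in CD8 T cells (0.89-fold) and Prdm1 in mature neutrophils (0.58-fold). Of the sensors and upstream genes 5 of 9 were higher in monocytes, where 16.8% of all genes were. Neutrophil precursors had 5 of 8 and mature neutrophils 4 of 8 higher, against 12.1% of all genes in each. Macrophages had 4 of 8 (11.9% of all genes), CD8 T cells 3 of 6 (16.7%) and B cells 3 of 6 (9.53%). None of these classes had a lower call. Other DCs had 2 higher and 1 lower of 4, other T cells 1 higher of 3 and plasma cells 1 of 1. In CD4 T cells 0 of 6 were called, in NK cells the 1 gene with enough UMIs was lower, and in epithelial cells 1 was higher and 1 lower of 3. Irf3, which is activated by phosphorylation downstream of STING, was on that list and was called in none of 7 classes, with ratios from 0.71 to 1.17. The interferon ligands had at most 2 genes with 50 UMIs in any class.

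Within mature neutrophils, Irf7 was more often found in cells that held a UMI of a target. In thinned mature neutrophils of cmExoaCD11b, 12.6% (11.2 to 14.2) of cells with a target UMI and 2.74% (1.19 to 5.33) of those without held Irf7. In PBS the shares were 6.17% (5.22 to 7.23) and 1.96% (1.19 to 3.05). Irf9 showed 9.31% and 4.79% in cmExoaCD11b and 4.39% and 2.69% in PBS. Irf1 showed 27.4% and 17.1% in cmExoaCD11b and 18.8% and 16.9% in PBS, and Irf5 3.64% and 2.055%, and 5.39% and 2.89%. Cells with a target UMI made up 87.1% of thinned mature neutrophils in cmExoaCD11b and 70.4% in PBS. Over 14 combinations of class and library the Irf7 share was higher with a target UMI in 12 and the Irf9 share in 7. It was higher in 13 for Irf1, 10 for Irf5, 9 for Irf2 and 7 each for Irf4 and Irf8, so the pattern was not particular to Irf7. No Irf7 UMI was found in the 8 CD4 T cells of PBS and 13 macrophages of cmExoaCD11b without a target UMI. Their intervals reached up to 36.9% and 24.7%. The same held for such CD8 T cells, 33 in PBS (up to 10.6%) and 37 in cmExoaCD11b (up to 9.49%). For Irf7 the exceptions were monocytes of PBS (2.56% with and 3.81% without) and B cells of PBS (0.592% and 1.59%). For Irf9 they included monocytes of cmExoaCD11b (4.89% and 12.2%) and macrophages and CD8 T cells of both libraries. For Irf7 the intervals of the groups were apart only in mature neutrophils of both libraries and in neutrophil precursors of PBS. They overlapped in all the other combinations. Cells of a library are not replicates, and these shares describe 2 pools.

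**Figure D5:**
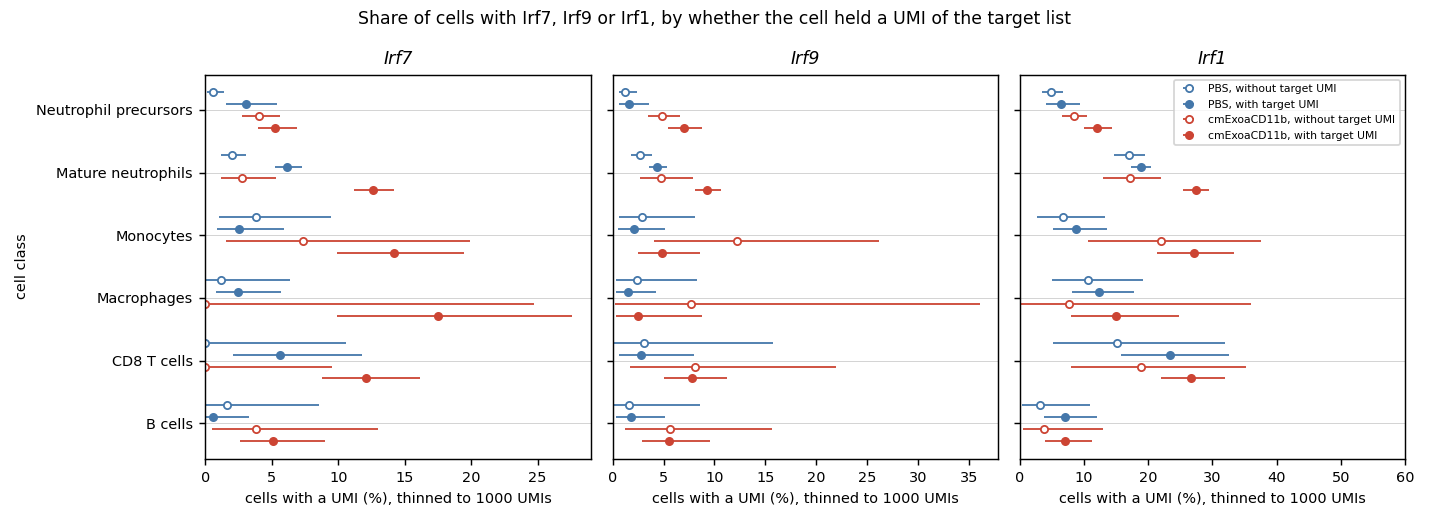
Share of cells (%) with a UMI of Irf7, Irf9 or Irf1 after thinning to 1000 UMIs, split by whether the cell held a UMI of the 20 targets (filled) or not (open), in 6 classes of the PBS (blue) and cmExoaCD11b (red) libraries, with exact 95% intervals. In mature neutrophils of cmExoaCD11b the Irf7 shares are 12.6% and 2.74%.

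Profiles of the factors over 19 combinations of class and library with at least 50 cells were compared. Irf7 and Irf9 had a Pearson correlation of 0.85, Irf1 and Irf9 0.75, Irf1 and Irf7 0.70 and Irf5 and Irf8 0.56, whereas Irf4 and Irf7 had -0.25. Profiles of a library share its depth and its mice, so no p is given. Among 9599 genes with at least 500 UMIs, the gate markers and the family left out, those most like Irf7 were Oas1a (0.91), Trafd1 (0.90) and Rnf213 (0.90), and those most like Irf9 were Trim30a (0.94), Ifit3 (0.93) and Rnf213 (0.93). Those most like Irf4 were Eif2ak3 (0.925), Trp53i11 (0.924) and Ralgps2 (0.91), and those most like Irf8 were Arl5c (0.937), Prag1 (0.932) and Slc41a2 (0.92). The first gene was Tle3 (0.882) for Irf1, Crebbp (0.927) for Irf2 and Tbc1d9 (0.946) for Irf5. Correlations of this size were thus not particular to Irf7 and Irf9.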

How the data were processed

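The files deposited by the authors hold raw UMI counts of 10x 3' libraries, with empty droplets and without normalization. Per the file headers they were made with Cell Ranger 7.1.0, whereas the study's methods name another version, and the genome build is not given in the sources used here. Barcodes were called as cells by a ranked-UMI cutoff (the 99th percentile of the top 3000 barcodes divided by 10), or with at least 500 UMIs by a multinomial test against empty droplets (10000 simulations, false discovery rate 0.01). Cells under 200 genes or above 20% mitochondrial UMIs were dropped, and those with the highest Scrublet scores were removed at 0.8% per 1000 cells, since Scrublet's own threshold marked 0 cells. Classes were gated by marker UMIs above the level that free RNA could give. The gate thresholds were set after marker UMI counts had been seen, and 954 PBS and 1116 cmExoaCD11b cells stayed ungated. The factors, the marker lists and the gene lists were chosen with earlier results of these data known. Besides the 7 factors, Irf3 and marker genes, those named are examples from the pathway lists and genes most like each factor over log2(CPM + 1) profiles. The pathway genes given with values have the highest or lowest ratio over all lists together, in monocytes, CD8 T cells and mature neutrophils. Some items of the study and of the gene lists are not reported here. Promoter sequences are from RefSeq (GRCm38.p6). Intervals of the ratios were tested on simulated Poisson counts, the model that they assume. The simulation left out uneven expression between cells, so it is no check of the intervals on these data. Python 3.11.15, numpy 2.4.6, scipy 1.17.1, pandas 2.3.3, scanpy 1.11.5 and numba 0.67.0 were used.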

Additional observations from a re-analysis of the deposited data

Results flagged for a closer look

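For 3 factors the ratio of cmExoaCD11b to PBS lay past 1.5-fold in opposite directions in different classes, and the difference between classes was not tested. Irf1 was higher by 1.81-fold in neutrophil precursors, 1.64-fold in mature neutrophils, 3.36-fold in monocytes, 1.72-fold in macrophages, 1.80-fold in CD8 T cells and 1.92-fold in plasma cells, and was 0.65-fold in NK cells, where PBS had 29 cells. Irf4 was 1.72-fold in plasma cells and 0.39-fold in other DCs. Irf8 was 1.91-fold in neutrophil precursors, 1.67-fold in mature neutrophils, 2.78-fold in other DCs and 3.52-fold in CD4 T cells, and 0.64-fold in CD8 T cells. The lower value of each factor turned direction in an alternative processing, to 1.12 for Irf1, 1.14 for Irf4 and 1.08 for Irf8. Higher values also turned, to 0.85 for Irf1 in plasma cells and to 0.86 and 0.64 for Irf8 in precursors and mature neutrophils. The opposite directions thus depend on the processing.

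Plasmacytoid DCs, cells known for high interferon output, were gated only in cmExoaCD11b, where 5 cells held Siglech at 605 CPM. PBS had 0 of 6835 cells, which allows a share of up to 0.0439%. In these 5 cells Irf8 stood at 1155 CPM (833 to 1562), Irf7 at 248 CPM (113 to 470) and Irf5 at 165 CPM (60.6 to 359), all above the empty droplets of that library. The Irf5 value rests on 6 UMIs in 20% of the 5 cells, that of Irf7 on 9 UMIs in 40% and that of Irf8 on 42 UMIs in 60%, so that single cells carry much of these levels.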

How the results depend on the processing

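No paired analysis was possible because each treatment has 1 library of different mice, and there was no replicate to leave out. Of the 32 combinations called higher, 24 stayed past 1.5-fold and 29 kept their direction in every alternative to cell calling, gating, scaling and weighting that gave a value, 8 to 10 per combination (4 of the 24 had fewer than 10); of the 5 called lower, 0 and 2 did. Counts of higher calls were 13 (of 26 testable) when cells were thinned to 1000 UMIs, which leaves fewer UMIs, and 20 at 2-fold. Counts of lower calls were 2 with the ranked-UMI cutoff alone, 3 without cells holding UMIs of other lineages, 3 with median-of-ratios scaling, 0 thinned, 10 with no minimum of UMIs and 1 at 2-fold. The directions that turned were Irf8 in neutrophil precursors (0.87 with no doublets removed and 0.86 as a mean over cells, chosen after seeing the data), Irf8 in mature neutrophils (0.64 thinned), Irf4 in other DCs (1.14 thinned), Irf8 in CD8 T cells (1.08) and Irf1 in NK cells (1.12), both with the ranked-UMI cutoff alone, and Irf1 in plasma cells (0.85 as a mean over cells). The cause was not tested. The level in the highest of the 12 compared classes of PBS over the median class, which leaves out type 1 DCs although they were higher for Irf5, Irf7 and Irf8, moved for Irf2 in NK cells to 1.13 and Irf4 in B cells to 10.6 (ranked-UMI cutoff), Irf4 in B cells to 7.38, Irf5 in other DCs to 3.64, Irf7 in NK cells to 0 and Irf9 in CD4 T cells to 3.12 (thinned), Irf5 in other DCs to 7.43 (no UMI of other lineages) and Irf8 in NK cells to 8.92 (1 more marker UMI). Small classes limit the depth: NK, plasma, other DC and epithelial cells had 21 to 45 cells in PBS.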
